A study of Mus musculus with 12 samples.

Results

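Pulmonary surfactant is the film of phospholipid and protein that alveolar type 2 cells secrete to lower surface tension and keep the air spaces open, and the genes followed here are those of its proteins and of the machinery that makes, stores and exports it. Type 2 cells build the film in lamellar bodies, storage organelles in which the lipid is packed together with the hydrophobic surfactant proteins B and C, while the collectins A and D are released into the lining fluid and bind microbes. The set was chosen by name, and all probe sets annotated to a single one of its 10 genes were taken, whatever their signal. They numbered 19 among the 24504 single-gene probe sets of the array and stood for 9 of the 10 genes (the array's single-gene probe sets covered 13710 genes), since Lamp3, a membrane glycoprotein of lamellar bodies, had only a probe set that it shares with Ppid.

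The mice were males of the FVB/N strain, weaned at 3 weeks of age, and all were given the same Se-deficient diet for 6 weeks, either with nothing added (0 Se) or with 0.1 ppm Se added as sodium selenite (0.1 Se). Liver and lung RNA was hybridized to Affymetrix mouse arrays, with 3 biological replicates for each diet and tissue and 12 arrays in all. The question of the comparison was whether dietary Se alters mRNA levels in the 2 tissues. Whole tissue was used, so fewer type 2 cells and less RNA per cell cannot be told apart in these values.

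Each value is the log2 of an array signal. A probe set with a blank in place of a value is called not listed on that array. Blanks include absent calls and possibly all signals below 100, which could not be separated. The arrays listed 22197 to 22718 probe sets in lung and 17235 to 17923 in liver. Lung tissue carried its defining markers, with 16 of 16 alveolar type 1 markers listed on all 6 lung arrays, and 9 of 11 hepatocyte markers were listed on no lung array. The 0.1 Se lung replicate 1 stood apart in its brightest signals, as described below, and no array went against its tissue label.

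Promoter sequences from RefSeq on build GRCm38.p6, 250 bases before to 50 bases after each transcription start, were at hand for 7 of the 10 genes, namely Sftpa1, Sftpb, Abca3, Slc34a2, Lamp3, Lpcat1 and Etv5. They were searched on both strands for CTCAAG, the core of the site bound by NKX2-1 (the homeodomain factor of lung epithelium), for TGTTTAC, a forkhead site, and for CCGGAAG, a site of the ETS family to which Etv5 belongs. Below are the promoters of the genes for surfactant proteins A and B, which held CTCAAG and moved in different ways over the lung arrays, and that of Abca3, which held none of the 3 motifs and was also listed in liver. Sftpa1 lies on the plus strand at chr14:41131538-41131837, Sftpb on the plus strand at chr6:72304360-72304659 and Abca3 on the plus strand at chr17:24351773-24352072, and capitals mark CTCAAG.
Sftpa1: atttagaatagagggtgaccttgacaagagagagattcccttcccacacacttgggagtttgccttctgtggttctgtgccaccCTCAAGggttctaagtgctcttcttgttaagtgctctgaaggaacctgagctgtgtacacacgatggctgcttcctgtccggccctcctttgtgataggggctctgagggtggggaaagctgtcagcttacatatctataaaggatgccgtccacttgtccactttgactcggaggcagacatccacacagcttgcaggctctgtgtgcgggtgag
Sftpb: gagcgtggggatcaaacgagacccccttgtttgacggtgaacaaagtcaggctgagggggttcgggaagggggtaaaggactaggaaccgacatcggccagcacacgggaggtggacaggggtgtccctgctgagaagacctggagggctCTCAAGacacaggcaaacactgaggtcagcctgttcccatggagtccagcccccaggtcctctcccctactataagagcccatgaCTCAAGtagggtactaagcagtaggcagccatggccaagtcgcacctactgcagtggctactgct
Abca3: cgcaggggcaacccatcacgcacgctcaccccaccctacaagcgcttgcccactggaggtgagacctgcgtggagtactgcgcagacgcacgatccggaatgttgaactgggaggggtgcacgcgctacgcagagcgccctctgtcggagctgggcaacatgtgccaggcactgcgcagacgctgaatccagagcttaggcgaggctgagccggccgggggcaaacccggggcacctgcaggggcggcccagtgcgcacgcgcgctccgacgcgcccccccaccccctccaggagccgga
The motif begins at positions -100 and -15 relative to the start site in Sftpb and at -166 in Sftpa1. It was present in 15.9% of 32851 promoter windows of all genes, so a match is common. TGTTTAC was found in Lamp3 and in 1 of the 2 Etv5 windows, against 3.65% of all windows, and CCGGAAG in none of the 8 windows of these genes, against 8.86% of all. These are matches of letters, and binding was not measured.

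The surfactant and type 2 genes were bright in lung and mostly not listed in liver, and selenium changed none of them past adjustment in either tissue. Of 17 probe sets tested in lung, 0 passed (limma with Benjamini-Hochberg adjustment over 21655 probe sets, of which 0.0924% passed). A single one, for the lipid transporter Abca3, had an unadjusted p under 0.05 and was lower in 0.1 Se, where 4.12% of all probe sets did the same. The methods' t-test placed 0 of the 17 under its unadjusted threshold, against 6.52% of all probe sets, and 0 after adjustment. In direction, 14 of the 17 differences lay below 0, that is, lower in 0.1 Se, against 52.1% of all probe sets. Over the 9 genes, each with its brightest lung probe set, the median difference was -0.17 on the log2 scale, beside -0.01 over all probe sets tested, with 7 genes below 0 and 2 above. Leaving out the 0.1 Se lung replicate 1 reduced this median to -0.09 and quantile normalization of the arrays to -0.08.

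**Figure D1:**
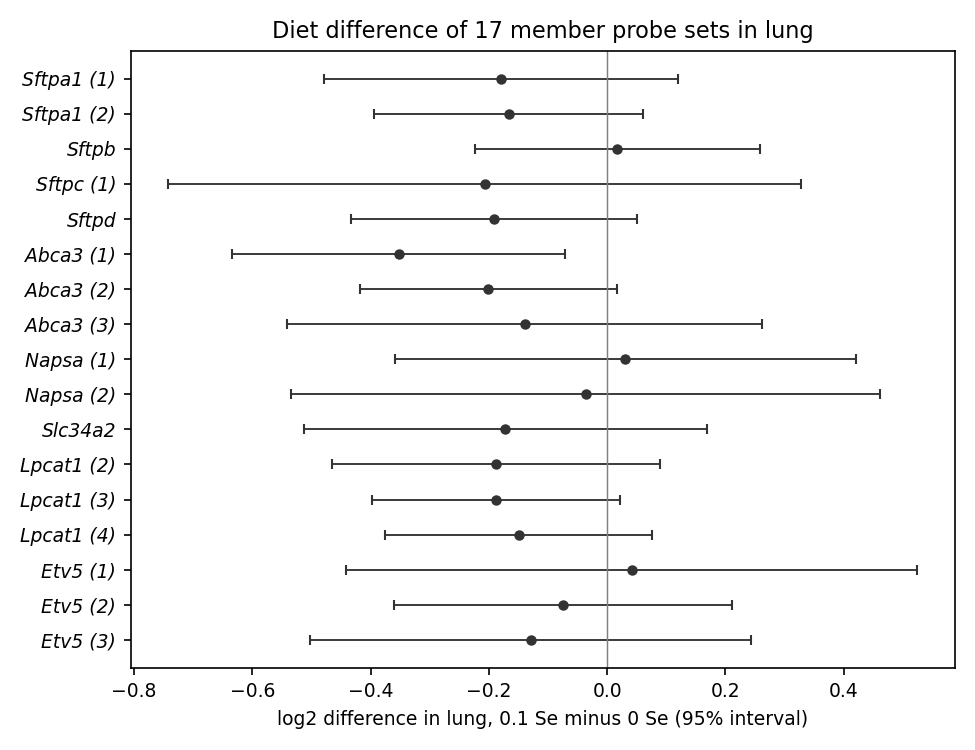
Log2 difference in lung, 0.1 Se minus 0 Se (horizontal axis), with its 95% interval from limma for the 17 probe sets tested (numbers in brackets tell apart probe sets of 1 gene, in the order of their identifiers). Of the 17 intervals, 16 include 0, and that of Abca3 (1) runs from -0.63 to -0.07.

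Among the hydrophobic surfactant proteins, Sftpc was the most variable gene of the set on the deposited scale, though not after quantile normalization, and Sftpb differed little between diets. Sftpc encodes surfactant protein C, a short lipopeptide made almost only by type 2 cells. Its main probe set (1418639_at) read 15.32, 15.33 and 15.77 on the 0 Se lung arrays 1 to 3 and 14.80, 15.83 and 15.16 on the 0.1 Se arrays 1 to 3. The 0.1 Se group held both the lowest and the highest of the 6 values, 2.04-fold apart, and enclosed the 0 Se group. The difference was -0.21 ± 0.24 (SE, n = 3 per diet, limma adjusted p = 0.897), a ratio of 0.866 with a 95% interval from 0.598 to 1.26. Without the 0.1 Se lung replicate 1 it was 0.02, and without the 0.1 Se lung replicate 2 -0.49. Within a diet the pooled SD of Sftpc was 0.41 on the log2 scale, above that of 97.1% of the probe sets listed on all lung arrays, whose median was 0.16.

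The other Sftpc probe set (1438290_x_at) was listed on 3 of 6 lung arrays, at 6.70 to 7.28, and was not tested. Sftpb encodes surfactant protein B, without which the surface film does not form. It read 12.39, 12.24 and 12.31 in 0 Se lung and 12.55, 12.14 and 12.31 in 0.1 Se lung. Here the 0.1 Se replicate 1 was the highest array, the reverse of its place for Sftpc, and the 2 diets overlapped. The difference was 0.02 ± 0.11 (limma adjusted p = 0.982), with a 95% interval from -0.22 to 0.26. It was -0.09 without the 0.1 Se replicate 1 and -0.02 without the 0 Se replicate 2.

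The collectins Sftpa1 and Sftpd, which bind sugars on microbial surfaces, were both lower on average in 0.1 Se lung by less than their test could separate from 0. Sftpa1 read 14.81, 14.84 and 15.01 in 0 Se and 14.49, 14.83 and 14.80 in 0.1 Se on its brightest probe set (1422334_a_at). A second probe set of the gene (1429626_at) read 14.03, 13.87 and 13.88 against 13.65, 13.83 and 13.79. Sftpd read 14.21, 14.20 and 14.38 against 13.96, 14.15 and 14.11.

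For Sftpd and for the second Sftpa1 probe set, all 3 arrays of 0.1 Se lay below all 3 of 0 Se, while the brightest Sftpa1 probe set overlapped. The differences were -0.18 ± 0.13 (limma adjusted p = 0.824) and -0.17 ± 0.10 (limma adjusted p = 0.779) for Sftpa1. For Sftpd the difference was -0.19 ± 0.11 (limma adjusted p = 0.759), with a 95% interval from -0.43 to 0.05. In all, 3 of the 16 probe sets listed on all lung arrays had groups that did not overlap and lay lower in 0.1 Se. Besides those named it was the dimmer probe set of Abca3, and 6.86% of all probe sets did so. Of the 16, 0 lay higher, a count for which no share of all probe sets is given. After quantile normalization, a check added after the data were seen, 3 probe sets again separated, where 6.84% of all probe sets did so. They were those of Sftpd and the 2 brighter ones of Abca3, while the Sftpa1 probe set overlapped.

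**Figure D2:**
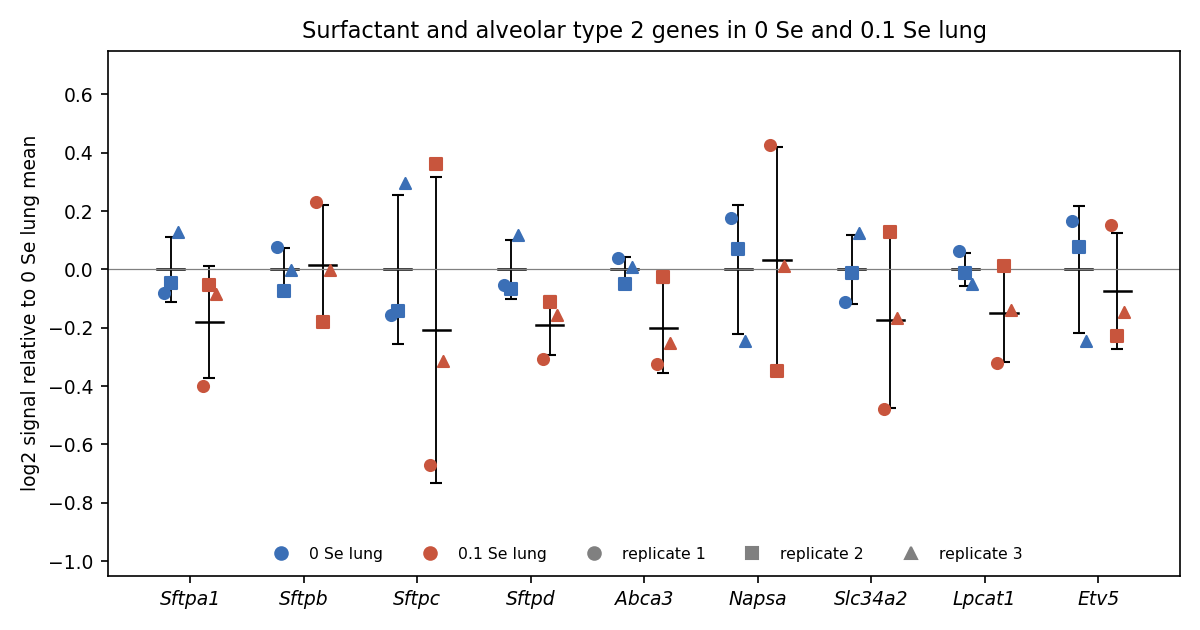
Log2 signal of the brightest probe set of each of the 9 genes on the 6 lung arrays, relative to the 0 Se lung mean of that gene (vertical axis), with horizontal bars for group means and vertical bars for the SD (n = 3). The 0.1 Se replicate 1 (red circles) is the lowest array for Sftpa1, Sftpc, Sftpd, Abca3, Slc34a2 and Lpcat1 and the highest for Sftpb and Napsa.

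Genes for the making and storage of surfactant lipid and protein came next. Abca3, the transporter that moves phospholipid into lamellar bodies, had the only interval that excluded 0. Its brightest probe set (1451731_at) read 12.99, 12.90 and 12.96 in 0 Se lung and 12.62, 12.92 and 12.69 in 0.1 Se lung. A dimmer one (1425496_at) read 10.32, 10.31 and 10.40 against 9.69, 10.12 and 10.16. The dimmer probe set separated the diets, with the 0.1 Se replicate 1 farthest down, and the brighter one did not, since its 0.1 Se replicate 2 lay within the 0 Se values.

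The Abca3 differences were -0.20 ± 0.10 (limma adjusted p = 0.688) on the brightest probe set and -0.35 ± 0.13 (unadjusted p = 0.0191, limma adjusted p = 0.528) on the dimmer one, whose 95% interval ran from -0.63 to -0.07. The dimmest probe set (1451869_at), at 8.20 to 8.53 in 0 Se and 7.91 to 8.49 in 0.1 Se, differed by -0.14 ± 0.18 (limma adjusted p = 0.905). All 3 Abca3 probe sets had their lowest value on the 0.1 Se replicate 1.

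Lpcat1, the acyltransferase that remodels phosphatidylcholine into its dipalmitoyl form, read 13.06, 12.98 and 12.95 in 0 Se lung and 12.67, 13.01 and 12.86 in 0.1 Se lung on its brightest probe set (1451359_at). The diets overlapped, and the difference was -0.15 ± 0.10 (limma adjusted p = 0.805). The 2 others listed in lung both differed by -0.19, with standard errors of 0.09 and 0.13 (limma adjusted p = 0.703 and 0.798), and overlapped too. The last probe set annotated to Lpcat1 (1420293_at) was listed on none of the 12 arrays.

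Napsa encodes napsin A, the aspartic protease that processes the surfactant protein B and C precursors. It read 12.41, 12.31 and 11.99 in 0 Se lung and 12.67, 11.89 and 12.25 in 0.1 Se lung. The 0.1 Se group again held the highest and the lowest array, but in the reverse order of Sftpc. The difference was 0.03 ± 0.18 (limma adjusted p = 0.980), with a 95% interval from -0.36 to 0.42, and its other probe set, at 7.79 to 8.62 over the 6 arrays, differed by -0.04 ± 0.23 (limma adjusted p = 0.981). On the main probe set it was -0.17 without the 0.1 Se replicate 1 and -0.09 without the 0 Se replicate 3.

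Slc34a2, the phosphate transporter of the type 2 cell surface, read 14.34, 14.45 and 14.58 in 0 Se and 13.98, 14.59 and 14.29 in 0.1 Se lung. Its 0.1 Se replicate 1 was lowest and its 0.1 Se replicate 2 level with the highest 0 Se array, so the diets overlapped. The difference was -0.17 ± 0.15 (limma adjusted p = 0.853), with a 95% interval from -0.51 to 0.17. It was -0.02 without the 0.1 Se replicate 1 and -0.32 without the 0.1 Se replicate 2.

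Etv5, the transcription factor of the ETS family that acts downstream of fibroblast growth factor signals in type 2 cells, read 11.42, 11.32 and 11.003 in 0 Se and 11.40, 11.02 and 11.10 in 0.1 Se lung. The groups covered nearly the same range, and the difference was -0.07 ± 0.13 (limma adjusted p = 0.931), with a 95% interval from -0.36 to 0.21. Its 2 dimmer probe sets differed by -0.13 ± 0.17 (limma adjusted p = 0.905) and by 0.04 ± 0.22 (limma adjusted p = 0.978), the latter over 5 listed arrays. The probe set shared by Lamp3 and Ppid, a cyclophilin, read 13.15 to 13.30 in 0 Se and 13.09 to 13.32 in 0.1 Se lung, and 10.54 to 11.01 in liver. It cannot be assigned to Lamp3.

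The genes did not all vary in the same way over single arrays. The 0.1 Se lung replicate 1 gave the lowest value for 10 of the 16 probe sets listed on all lung arrays, whereas it was the lowest array for 22.2% of all such probe sets. The 0 Se replicate 1 was the highest array for 7 of the 16, against 17.5% of all. Sftpc, Sftpa1, Sftpd and Slc34a2, the genes whose brightest probe set averaged above 14, had the 0.1 Se replicate 1 as their lowest array. The brightest probe sets of other genes did the same. Among 34 of them with mean log2 signals of 15 and more, the median deviation from the mean of the 6 arrays was -0.43 on the 0.1 Se replicate 1 and 0.27 on both the 0.1 Se replicate 2 and the 0 Se replicate 3. Their median diet difference was -0.17. For 208 probe sets at 14 to 15 the deviations were -0.24, 0.15 and 0.15 on those 3 arrays and the median diet difference was -0.08. For 2998 probe sets at 11 to 13 the deviations lay between -0.02 and 0.01, with a median diet difference near 0 (-0.0036).

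Some bright genes of other lung cells took the same order. Scgb1a1, the secretoglobin of club cells, read 15.64, 15.86 and 16.25 in 0 Se and 15.16, 16.24 and 15.67 in 0.1 Se lung. Ager, the receptor that marks type 1 cells, read 15.10, 15.14 and 15.49 against 14.70, 15.43 and 15.10. The club cell genes Scgb3a2 and Cyp2f2 had their lowest value on the 0.1 Se replicate 1 too, at 14.65 and 14.50, but their 0.1 Se replicate 2, at 14.995 and 14.83, lay below all 3 arrays of 0 Se. After quantile normalization, which gives all arrays the same distribution of signals, the range of Sftpc over the 6 arrays was 0.28 in place of 1.03, and its difference was -0.06. Sftpa1 then differed by -0.07, Slc34a2 by -0.12, Sftpd by -0.14 and Abca3 by -0.19, while the range of Napsa was 0.85 in place of 0.77. The 0.1 Se replicate 1 remained the lowest array for 7 of the 16 probe sets on that scale, and the 0.1 Se replicate 2 was the lowest for 6. Without the 0.1 Se replicate 1 the deposited values gave differences of -0.07 for Sftpa1, -0.13 for Sftpd, -0.14 for Abca3, -0.06 for Lpcat1 and -0.19 for Etv5. In that setting 15 of the 17 probe sets lay below 0, against 49.4% of all probe sets, a count added after the data were seen. Without the 0.1 Se replicate 2 the differences of these genes were -0.24, -0.23, -0.29, -0.23 and 0.0021. Here 13 of the 17 probe sets lay below 0, against 53.0% of all. The part of these shifts of whole arrays in the diet differences was not tested.

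**Figure D3:**
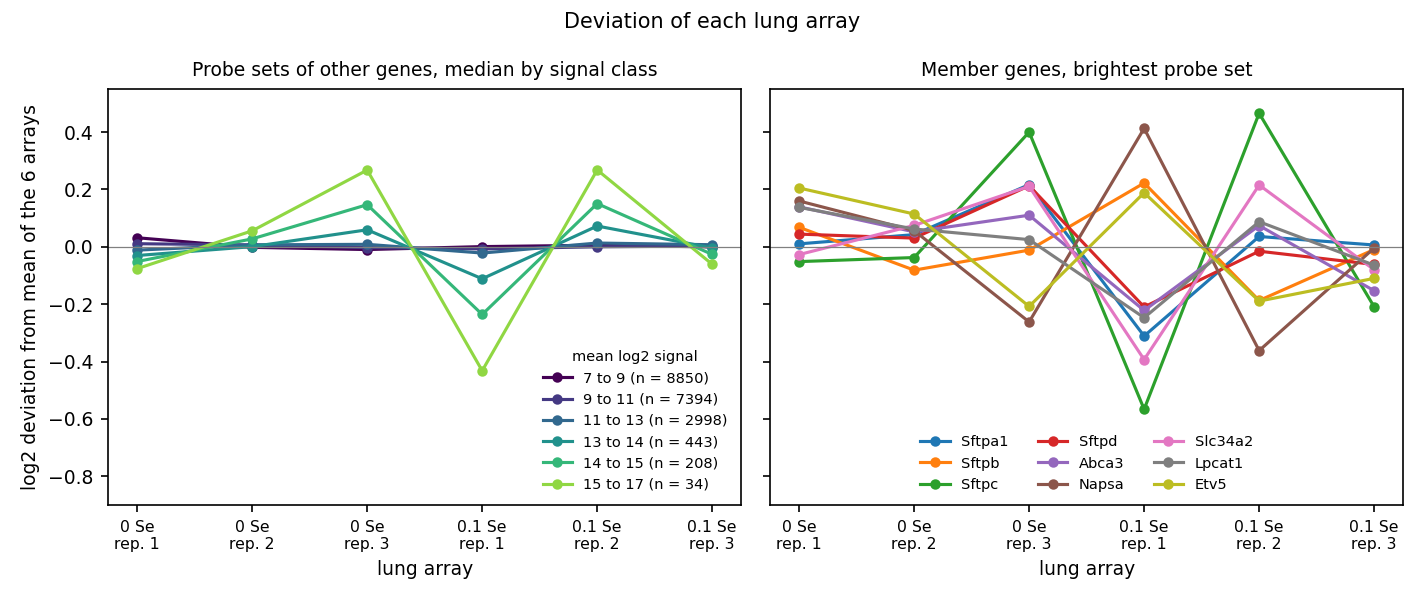
Log2 deviation of each lung array from the mean of the 6 arrays (vertical axis), as medians over probe sets of other genes in classes of mean log2 signal (left) and for the brightest probe set of each of the 9 genes (right). The brightest class falls to -0.43 on the 0.1 Se replicate 1, and Sftpc and Slc34a2 fall with it, while Napsa, Sftpb and Etv5 lie above 0 on that array.

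Pearson's r over the 6 lung arrays was taken from the deposited values of the brightest probe set of each gene. On these, Sftpa1, Sftpc, Sftpd, Slc34a2, Abca3 and Lpcat1 ran together, and Sftpb, Napsa and Etv5 mostly ran the other way. Etv5 was only weakly related to Abca3 (r = -0.19) and Lpcat1 (r = -0.20). Other probe sets did not all keep to this. On the 0.1 Se replicates 1 and 2, Lpcat1 1424459_at deviated by 0.10 and -0.30, and the brightest Lpcat1 probe set by -0.25 and 0.09. Sftpc ran with Slc34a2 (r = 0.96) and Sftpa1 (r = 0.83), Sftpa1 with Sftpd (r = 0.94) and Abca3 with Lpcat1 (r = 0.93). Napsa ran with Etv5 (r = 0.89) and Sftpb (r = 0.86) and against Sftpc (r = -0.95). The arrays share their RNA and scaling across all genes, so these values describe 6 arrays and carry no test. Outside the set, the 6 probe sets closest to Sftpc among 17402 compared were those of Prmt2, Atp8a1, Lyz1, Ndufc2, Rps14 and App (r from 0.99 to 1.00), and 376 probe sets had r above 0.9. Closest to the mean of the set were Zscan21, Kif1b, Atp10d, Pawr, Arhgap42 and Ptk7 (r from 0.98 to 1.00), with 184 above 0.9.

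Other genes of type 2 cells and surfactant metabolism were read beside the set. Of 35 tested in lung (transcription factors, secreted products and lipid enzymes), 0 rose and 0 fell by limma's adjusted p. At an unadjusted p under 0.05, 2 were higher and 7 lower. Of all 21655 probe sets, 1661 had such a p in either direction, 893 of them (4.12%) lower. Of the 35 differences, 30 lay below 0, against 52.1% of all probe sets, and their median was -0.09. The brightest, Lyz2, the lysozyme of macrophages and type 2 cells, differed by -0.15 ± 0.18 (limma adjusted p = 0.895), and Cxcl15, the lung chemokine lungkine, by -0.20 ± 0.12 (limma adjusted p = 0.778). Scd1, the desaturase of stearate, differed by -0.08 ± 0.12 (limma adjusted p = 0.918) and Cd36, a fatty acid transporter, by -0.03 ± 0.12 (limma adjusted p = 0.967). The 2 higher genes, named after their values were seen, were Cd74, the invariant chain of class II molecules, at 0.60 ± 0.18 (limma adjusted p = 0.410) and the amino acid transporter Slc6a14 at 0.31 ± 0.12 (limma adjusted p = 0.549). The 7 lower genes, named in the same way, were the complement gene Hc (-0.41), Ppp1r14c (-0.30), the mucin Muc1 (-0.29), the cytokine Il33 (-0.28), the forkhead factor Foxa1 (-0.26), Pcyt1a (-0.24) and the growth factor receptor Fgfr2 (-0.19), with limma adjusted p from 0.399 to 0.643.

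In the phosphatidylcholine and lipid synthesis list, 0 of 26 genes rose and 0 fell. The median was -0.08, and 19 of 26 lay below 0, against 52.1% of all probe sets. This list is not independent of the first, since Chpt1, Elovl6, Fasn, Insig1, Lpin1, Pcyt1a, Scd1 and Srebf1 are in both. At an unadjusted p under 0.05, 2 were lower and 0 higher, where 4.12% of all probe sets were lower. These 2, named after their values were seen, were Pcyt1a, the enzyme that sets the rate of phosphatidylcholine synthesis, at -0.24 ± 0.09 (limma adjusted p = 0.536), which is also in the first list, and Acaca, acetyl-CoA carboxylase, at -0.39 ± 0.17 (limma adjusted p = 0.617). Of the brightest genes in this list, Scd2 differed by 0.06 ± 0.13 (limma adjusted p = 0.946), the elongase Elovl5 by 0.04 ± 0.11 (limma adjusted p = 0.957) and Elovl1 by -0.17 ± 0.11 (limma adjusted p = 0.791).

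Marker lists of other lung cells are given beside these values. Over all probe sets tested in lung, 52.1% lay below 0, and 4.12% were lower at an unadjusted p under 0.05. All 11 ciliated cell markers tested lay below 0, with a median of -0.81, of which 1 passed (Fam216b, -1.18 ± 0.17, limma adjusted p = 0.0443, named after its value was seen, with no lung probe set of any gene called when the trend, the 0 Se replicate 2 or the 0.1 Se replicate 2 was left out), and their summed signal was 15203 to 17957 in 0 Se and 8167 to 14600 in 0.1 Se lung. For club and secretory cells, 11 of 12 lay below 0 with a median of -0.40, 0 passed and 7 were lower at an unadjusted p under 0.05. These lists were chosen with earlier results of the data known. The paper's table of the largest fold changes in lung holds Fam216b and the club marker Chad, both down-regulated. The call and the medians of these lists are thus no independent evidence. The 16 type 1 markers had a median of 0.01, with 9 above 0 and 7 below, and 0 passed. Their summed signal, 209000 to 251941 in 0 Se and 175125 to 265049 in 0.1 Se, was lowest on the same array as that of the surfactant set, which was 139505 to 161852 and 111627 to 156831.

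White cell markers lay highest on that array. The 0.1 Se lung replicate 1 lay 1.56 above the mean of the 6 arrays by the median of 6 neutrophil markers and 0.65 above it by that of 11 alveolar macrophage markers. Neutrophil signals summed to 1770 to 4058 in 0 Se and 4942 to 18855 in 0.1 Se lung. The lists' median differences were 0.99 for neutrophils (4 of 6 above 0, 3 higher at an unadjusted p under 0.05) and 0.23 for macrophages (8 of 11 above 0). Of all 21655 probe sets tested in lung, 1661 had such a p in either direction, 893 of them lower. No gene of either list passed. Endothelial markers had a median of -0.01 over 12 genes and cardiac muscle markers one of -0.66 over 8, and 0 of either list passed. The cardiac signals varied widely within a diet, with sums of 4653 to 37428 in 0 Se and 5630 to 21232 in 0.1 Se lung. Of all these markers, the ones listed on no lung array were Nppb of heart muscle and the 9 hepatocyte genes. The part of other cells in the values of the surfactant genes was not tested.

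In liver most of the set was not listed or was listed near the lowest value, and Abca3 and Etv5 were the genes with higher values. Of the 16 probe sets listed on all 6 lung arrays, 8 were listed on no liver array, among them all those of Sftpa1, Sftpb and Sftpd, where 16.4% of all probe sets did so. Sftpc was listed on a single liver array (6.96, 0.1 Se replicate 1), Napsa on 2 (6.72 and 6.84, 0.1 Se replicates 1 and 2) and Slc34a2 on 2 (7.14 in 0 Se replicate 3 and 7.17 in 0.1 Se replicate 3). These isolated values lay close to the lowest value of the table, 6.64. No fold against liver is given for them.

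**Figure D4:**
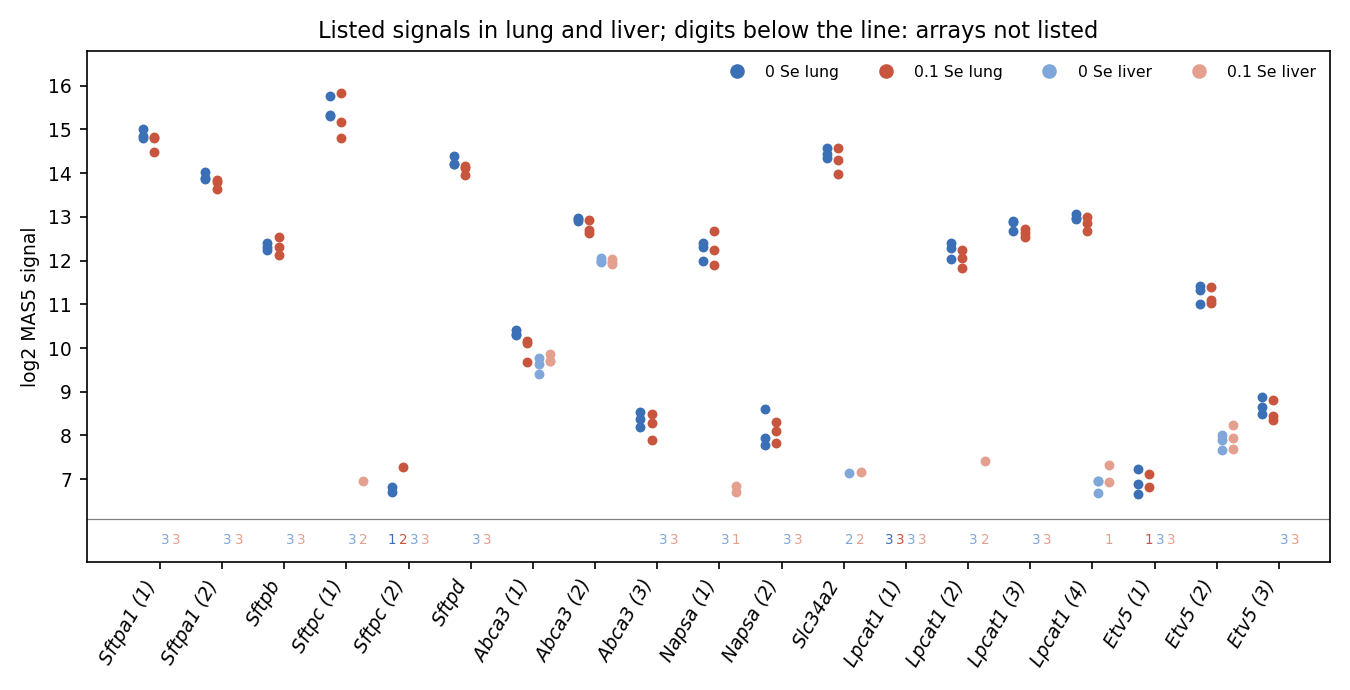
Log2 signal (vertical axis) of the 19 probe sets on the lung arrays (dark points) and liver arrays (light points) of both diets, with the number of arrays on which each was not listed printed under the line. Abca3 (1) and (2), Lpcat1 (4) and Etv5 (2) are the ones with a value on 5 or more of the 6 liver arrays.

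Abca3, Lpcat1 and Etv5 were listed on enough liver arrays to be tested against lung. Lpcat1 read 6.96, 6.96 and 6.67 in 0 Se liver and 6.93 and 7.32 on the 2 listed arrays of 0.1 Se liver. These values lay close to the lowest of the table, and the remaining liver array was blank. The other Lpcat1 probe sets seen in lung were listed on 1 and 0 liver arrays. The direction can thus be read, but not the size of the difference from lung. Between the listed values the log2 difference, lung minus liver, was 6.13 ± 0.13 in 0 Se (limma adjusted p = 5.05e-14) and 5.72 ± 0.15 in 0.1 Se (limma adjusted p = 2.25e-13). These sizes and p-values depend on liver values near the lowest of the table. Every lung array lay above every listed liver array.

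Etv5 read 7.67, 8.01 and 7.91 in 0 Se liver and 7.70, 7.95 and 8.24 in 0.1 Se liver. It was 10.5-fold higher in lung in 0 Se (3.39 ± 0.16, limma adjusted p = 5.56e-11) and 9.25-fold higher in 0.1 Se (3.21 ± 0.16, limma adjusted p = 9.94e-11). The tissues did not overlap in either diet.

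Of these 3 genes Abca3 had the smallest difference between the tissues. Its brightest probe set read 11.97, 11.99 and 12.05 in 0 Se liver and 11.96, 11.92 and 12.05 in 0.1 Se liver, 1.92-fold below lung in 0 Se (0.94 ± 0.09, limma adjusted p = 1.11e-07) and 1.70-fold below it in 0.1 Se (0.77 ± 0.09, limma adjusted p = 1.12e-06). After quantile normalization these differences were 1.62 and 1.44, and after centring each array on its median 0.75 and 0.57, each past the test. The dimmer probe set read 9.77, 9.63 and 9.40 in 0 Se liver and 9.69, 9.70 and 9.86 in 0.1 Se liver. It was 1.67-fold higher in lung in 0 Se (0.74 ± 0.14, limma adjusted p = 0.000145), while in 0.1 Se the tissues overlapped and the difference was 0.24 ± 0.14 (limma adjusted p = 0.123). That last difference was 0.50 (limma adjusted p = 0.00339) after quantile normalization, 0.04 (limma adjusted p = 0.818) after median centring and 0.39 (limma adjusted p = 0.0142) without the 0.1 Se lung replicate 1.

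All 4 probe sets tested were thus higher in lung in 0 Se, where 42.8% of all probe sets were, and 3 of 4 in 0.1 Se, where 43.4% were. Over all probe sets tested the median lung minus liver difference was 0.18 in 0 Se and 0.19 in 0.1 Se, and 0.44 and 0.46 after quantile normalization.

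Diet did not change the liver values of these genes past the test. Abca3 differed by -0.03 ± 0.09 (limma adjusted p = 0.973) and 0.15 ± 0.14 (limma adjusted p = 0.875) on its 2 probe sets, Etv5 by 0.10 ± 0.20 (limma adjusted p = 0.951) and Lpcat1 by 0.26 ± 0.23 (limma adjusted p = 0.875). The 95% intervals ran from -0.22 to 0.17 and from -0.16 to 0.46 for Abca3, from -0.34 to 0.55 for Etv5 and from -0.25 to 0.78 for Lpcat1. The count was 0 of 4 by limma, where 0.0121% of 16575 probe sets passed, and 0 of 4 at an unadjusted p under 0.05. Whether the diet difference itself differed between lung and liver was tested as an interaction. None of the 4 passed (0 of 15112 probe sets, or 0%, did so by limma, with 931 at an unadjusted p under 0.05). The dimmer Abca3 probe set had the only unadjusted p under 0.05 among the 4, at -0.50 ± 0.19 (unadjusted p = 0.0190, limma adjusted p = 0.760).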

How the data were processed

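Lung and liver RNA of male FVB/N mice on 0 Se or 0.1 Se diets was measured on 12 arrays, 3 biological replicates in each of 4 groups, and each array was placed by its title, with 0 columns left without a sample. The authors computed MAS5 signals, scaled each array on its own and left out absent calls, and the deposited values are log2 signals of 29467 probe sets, from 6.64 to 16.4. R 2.15.2 and affy 1.36.0 stand in the processing notes of the submitters. Values were used as deposited, without the 58 control probe sets. Genes were named by the platform annotation, and 24434 of 24504 single-gene probe sets matched RefSeq by Entrez number. Identifiers with _x_at or _s_at mark probes that may bind more than 1 transcript. The number of arrays limits the precision.

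Probe sets with at least 2 values per group were tested by limma 3.58.1 in R 4.3.3 (lmFit, eBayes with a trend, version 1.17.8 of data.table), with blanks left missing and Benjamini-Hochberg adjustment at 0.05 over all probe sets. Diets were compared within a tissue, and lung with liver and the interaction in a fit of 4 groups. All intervals are 95% intervals of limma. Figures were drawn with matplotlib 3.10.9.

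The members and the gene lists were chosen with earlier results of these data known. All member probe sets are named, with the brightest in lung standing for its gene in lists. Of other lists the brightest up to 4 genes may be named, and the 6 probe sets most like Sftpc or the members' mean. The lists held type 2 and surfactant metabolism, lipid synthesis, alveolar type 1, club, ciliated, macrophage, neutrophil, endothelial, cardiac and hepatocyte genes, of which 13 had no single-gene probe set here. The only hepatocyte gene tested in lung differed by -0.85. The fit was checked on simulated data with known changes. In lung it recovered 28.4% of 1.5-fold, 71.6% of 2-fold and 97.0% of 4-fold changes. In liver it recovered 38.8%, 71.6% and 98.5%. Changes smaller than 1.5-fold were not simulated, so a member that did not pass may still differ by a small amount. Same-numbered lung arrays of the 2 diets deviated with correlations of 0.05, -0.15 and -0.01. Same-numbered lung and liver arrays gave 0.11, 0.06 and 0.11 in 0 Se and -0.004, 0.02 and -0.04 in 0.1 Se. The numbers were not taken as pairs. The titles do not say whether a lung and a liver array came from the same mouse, and the fit of 4 groups took all arrays as independent. Alternatives covered filters, normalization, the log offset of 32, the prior, array weights, a replicate block, the further probe sets of a gene and each array left out in turn.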

Additional observations from a re-analysis of the deposited data

How the results depend on the processing

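No probe set of the surfactant and type 2 genes passed between diets in lung or in liver under any alternative run. The differences of Sftpa1, Sftpd, Abca3, Slc34a2 and Lpcat1 kept their sign throughout. Those of Napsa, Etv5, Sftpb and Sftpc did not. Napsa was -0.025 with array weights, -0.036 on its other probe set, -0.09 without the 0 Se lung replicate 3 and -0.17 without the 0.1 Se lung replicate 1. Etv5 was 0.041 on another probe set, 0.0098 without the 0 Se lung replicate 1 and 0.0021 without the 0.1 Se lung replicate 2. Sftpb was -0.020 without the 0 Se lung replicate 2 and -0.090 without the 0.1 Se lung replicate 1, and Sftpc 0.024 without the latter. With 1 array left out, Sftpb ranged from -0.090 to 0.11, Sftpc from -0.49 to 0.024, Napsa from -0.17 to 0.22 and Etv5 from -0.20 to 0.0098. Leaving out 1 array at a time, the members' median difference ranged from -0.23 (without the 0.1 Se lung replicate 2) to -0.09 (without the 0.1 Se lung replicate 1). Calls between lung and liver ranged from 5 to 8, in place of 7 over both diets. They numbered 5 without the 0.1 Se liver replicate 1 or 2, where Lpcat1 had too few listed values to be tested. With blanks set to the lowest value these calls numbered 31, because all probe sets were then tested, with blank liver arrays at that value. No share of all probe sets is given for these settings. Counts with 1 lung array left out were added after the data were seen. They gave 13 to 16 of 17 probe sets below 0, where 49.4% to 53.0% of all probe sets were. From 3 to 8 did not overlap and lay lower in 0.1 Se (6 without the 0 Se lung replicate 2, 8 without the 0.1 Se lung replicate 2), where 11.4% to 12.8% of all probe sets did so.

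With the replicate number as a block, 0 members passed in lung, the members' median difference was again -0.17 and calls between lung and liver numbered 7. Over all probe sets, lung calls by diet were 20, and 56 with the replicate block, 75 without the 0.1 Se lung replicate 1, 40 with array weights, 29 without the 0 Se lung replicate 1, 13 with a robust trend, 10 after quantile normalization, 8 above the median signal, 5 with blanks filled, 4 without the 0 Se lung replicate 3, and 0 with no trend, without the 0 Se lung replicate 2 or without the 0.1 Se lung replicate 2. The cause was not tested. Levels near 6.64 are limited by the blanks.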
